A study of Mus musculus with 9 samples.

Results

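The dystrophin complex and the laminin receptors of muscle were followed here through 8 genes, which were taken by symbol from the deposited table of 13116 genes: Dmd, Utrn, Dag1, Sgca, Sgcb, Sgcd, Lama2 and Itga7. All 8 were present and all passed the filter on low values. The RNA came from quadriceps muscle of male mice aged 18 months, in 3 groups of 3 libraries. WT_PBS were wild-type mice that received PBS, KO_PBS were mice without acid alpha-glucosidase (Gaa, genotype GAA KO) that received PBS, and KO_secGAA were GAA KO mice that received AAV8-sp7-delta8-hGAAco. This adeno-associated virus vector drives a secreted form of acid alpha-glucosidase (secGAA), whose expression the study's title places in the liver. Each mouse was injected in the tail vein when 9 months old, which was 9 months before the muscle was sampled. Gaa is the lysosomal enzyme that degrades glycogen, and its loss causes Pompe disease, a disease of muscle. The labels do not say that each library is a different mouse, so p-values measure the spread between libraries.

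Reads in the genes of the table ranged from 9299156 to 15957106 per library, and Gaa itself separated the genotypes (129 to 296 normalized counts in WT_PBS, 14.0 to 17.8 in the 6 knockout libraries). Fast and mature fibre genes such as Acta1, Ckm and Myh4 were abundant in every library, which fits the label of skeletal muscle: the 10 genes of that list summed to between 109400 and 176100 normalized counts. A normalized count is the reads of a gene, plus 0.5, per 1e6 reads of a library size scaled by the authors. The 8 genes rested on 54 to 127 reads per library for Sgcd, the least abundant, and on 2301 to 3559 for Sgca, the most abundant.

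Dystrophin, the product of Dmd, is a long rod-shaped protein that ties the actin cytoskeleton under the muscle fibre membrane to dystroglycan. Dystroglycan (Dag1) crosses the membrane and binds laminin-211, the laminin of the muscle basement membrane, whose alpha 2 chain is encoded by Lama2. The sarcoglycans, Sgca, Sgcb and Sgcd among them, form a subcomplex beside dystroglycan that stabilises it. Utrophin (Utrn) is a close relative of dystrophin, held at the neuromuscular junction in adult fibres and found along the membrane of developing and regenerating ones. Integrin alpha 7 (Itga7) pairs with integrin beta 1 as the other main laminin receptor of muscle. Loss of dystrophin, of a sarcoglycan, of laminin alpha 2 or of integrin alpha 7 each causes a muscular dystrophy or myopathy.

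RefSeq promoter windows (build GRCm38.p6) were at hand for 7 of the 8 genes, the exception being Itga7. The windows of Dmd, Sgcd and Lama2 are printed because these 3 genes passed the test in both comparisons that include KO_PBS. That of Dag1 is printed as an example of the genes that passed in neither, which were Dag1, Utrn and Sgca. Each is the 250 bases before an annotated transcript start, 5′ to 3′ on the gene's strand, without bases in an annotated exon. Capitals mark CANNTG, the E-box core that myogenic transcription factors and others can bind. The motif reads the same on both strands.
Dmd, start of the full-length transcript, chrX:82948620-82948869, plus strand: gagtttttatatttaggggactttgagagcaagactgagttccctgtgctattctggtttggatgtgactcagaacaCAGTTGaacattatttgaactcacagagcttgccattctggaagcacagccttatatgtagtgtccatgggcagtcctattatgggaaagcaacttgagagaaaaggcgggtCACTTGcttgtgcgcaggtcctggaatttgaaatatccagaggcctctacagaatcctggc
Sgcd, chr11:47379523-47379575, minus strand: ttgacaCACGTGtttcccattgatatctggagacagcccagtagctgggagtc
Lama2, chr10:27616943-27617192, minus strand: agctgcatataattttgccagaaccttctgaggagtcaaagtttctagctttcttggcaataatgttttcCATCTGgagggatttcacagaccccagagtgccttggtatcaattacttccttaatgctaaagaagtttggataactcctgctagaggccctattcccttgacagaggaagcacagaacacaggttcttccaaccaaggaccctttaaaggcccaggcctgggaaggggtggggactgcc
Dag1, chr9:108263959-108264208, minus strand: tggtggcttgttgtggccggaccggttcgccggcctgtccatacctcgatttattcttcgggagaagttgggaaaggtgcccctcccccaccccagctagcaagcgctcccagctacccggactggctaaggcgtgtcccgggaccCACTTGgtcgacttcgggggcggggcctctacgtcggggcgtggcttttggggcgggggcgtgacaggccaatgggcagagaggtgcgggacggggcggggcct
The printed Dmd and Dag1 windows lie outside every transcript of GENCODE M21, while that of Lama2 lies in an intron of a longer annotated transcript. For Sgcd only 53 bases are printed, which lie in introns of 2 longer transcripts, since the rest overlaps a first exon. The printed Dmd window had 2 matches, 173 and 61 bases before the start, and those of Lama2 and Dag1 had 1 each, 180 and 104 bases before it. The Sgcd match, CACGTG, lies 244 bases before the RefSeq start, and a CAGTTG 86 bases before it is in the exon part that is not printed. At least 1 CANNTG was found in 66.2% of the 32851 windows of this length, and CACGTG, one form of it, in 6.02%. GGGCGG, searched on both strands, stood 3 times in the Dag1 window, once in the whole Sgcd window and in neither of the others, against 32.7% of windows with at least 1. The printed Dag1 window was 67.6% G and C, those of Lama2 and Dmd 47.2% and 45.2%, against a median of 52.4%. Dmd and Dag1 each had a second window that is not printed. That of Dmd, chrX:85048045-85048294, held 0 CANNTG and 3 GGGCGG matches and was 60.0% G and C. That of Dag1 overlapped the printed one, held the same CACTTG and 3 GGGCGG, and was 74.8% G and C. The windows of Utrn, Sgca and Sgcb, which are not printed, held 7, 1 and 0 CANNTG matches, with a CACGTG in that of Utrn. All these matches describe letters and were not tested against the expression values.

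To compare levels between genes, normalized counts were divided by the length of the longest coding transcript in kilobases. In WT_PBS, Sgca stood highest at 119 ± 5.24 normalized counts per kilobase (SD, n = 3). Sgcb (27.9 ± 2.48) and Dag1 (27.4 ± 2.23) followed with overlapping libraries, and then Itga7 at 21.1 ± 1.52. Dmd, with a transcript of 14.9 kilobases in 79 exons, was at 3.71 ± 0.245, Lama2 at 2.95 ± 0.328 and Sgcd at 2.42 ± 0.399, of which Lama2 and Sgcd overlapped. Utrn was lowest at 1.08 ± 0.120. In KO_PBS and in KO_secGAA the order was the same but for Lama2 and Dmd, which exchanged places with overlapping libraries, at 5.30 ± 0.692 and 4.76 ± 0.283 in KO_PBS and 3.71 ± 0.252 and 3.44 ± 0.425 in KO_secGAA. Short isoforms of Dmd and Utrn count towards the same gene, so these values are approximate for both.

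The first comparison, KO_PBS against WT_PBS, concerned loss of the enzyme. Every one of the 8 genes had a higher mean in KO_PBS (51.0% of all genes had a log2 fold change above 0), and 5 of them rose: Lama2 1.78-fold, Sgcd 1.41-fold, Itga7 1.34-fold, Dmd 1.28-fold and Sgcb 1.21-fold. Utrn, Sgca and Dag1 did not pass the test. Genes were said to rise or fall where limma's adjusted p over all 13089 genes tested was under 0.05, and 10.9% of all genes rose while 11.0% fell. For 7 of the 8 genes each KO_PBS library lay above each WT_PBS library, a separation that 20.7% of all genes showed. The members' median log2 fold change was 0.35, beside 0.01 for all genes. The members, and the lists below, were chosen with earlier results of these data known. Such shares and medians, here and below, therefore do not show that a set stands out from all genes. In bulk tissue, a change in the number of cells of a type and a change in RNA per cell cannot be told apart.

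The second comparison, KO_secGAA against KO_PBS, concerned the vector in knockout muscle. Each of the 8 genes had a lower mean in the treated group (50.0% of all genes had a log2 fold change below 0), and Sgcd, Dmd and Lama2 fell, by 0.69, 0.47 and 0.50 on the log2 scale. The share of all genes that fell was 2.31%, and 1.37% rose. The treated libraries lay below each KO_PBS library for 4 genes, these 3 and Sgcb, a separation seen in 12.3% of all genes. The median log2 difference of the 8 genes was -0.19, beside 0.00 for all genes. Both comparisons use the same KO_PBS libraries, so a high KO_PBS value raises the first and lowers the second, and neither supports the other.

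**Figure D1:**
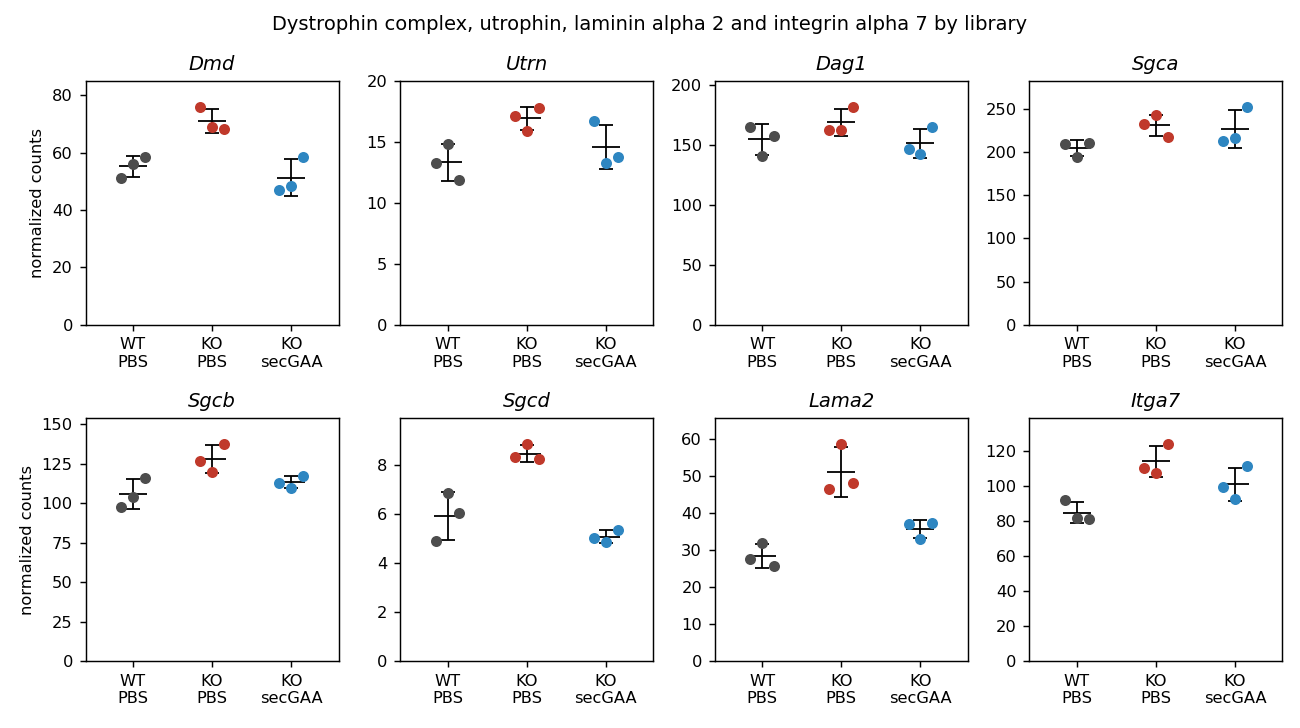
Normalized counts of the 8 genes (y axes, each from 0) in the 3 libraries of each group (x axes: WT_PBS grey, KO_PBS red, KO_secGAA blue; black bars are mean and SD). Lama2 lies between 25.7 and 31.9 in WT_PBS, between 46.4 and 58.6 in KO_PBS and between 32.9 and 37.3 in KO_secGAA, while the groups of Dag1 overlap.

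Among the cytoskeletal linkers, Dmd (ENSMUSG00000045103, chromosome X, 82948870 to 85206141, GRCm38) was at 51.3, 56.0 and 58.5 normalized counts in WT_PBS, at 75.8, 68.8 and 68.3 in KO_PBS and at 47.1, 48.2 and 58.6 in KO_secGAA. KO_PBS stood clear of both other groups, and 2 of the 3 treated libraries lay below the lowest wild-type one. The rise was 0.36 on the log2 scale (SE 0.10, limma adjusted p = 0.033) and the fall with treatment 0.47 (log2 difference -0.47, SE 0.10, adjusted p = 0.0387). The first call ended without any one of the WT_PBS or KO_PBS libraries (adjusted p from 0.0578 to 0.0964). The second ended without any one of the KO_PBS libraries, KO_secGAA 1, KO_secGAA 2, WT_PBS 2 or WT_PBS 3 (0.0571 to 0.127), and both ended in a fit with no variance trend (0.063 and 0.0786). The second call also ended in a fit of only the 2 groups compared (0.0725).

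Utrn (ENSMUSG00000019820, chromosome 10, 12382188 to 12869365) stood at 13.3, 14.9 and 11.9 in WT_PBS, at 17.1, 15.96 and 17.8 in KO_PBS, and at 16.7, 13.3 and 13.8 with treatment. KO_PBS lay above WT_PBS without overlap, and KO_secGAA overlapped both. The log2 difference of 0.34 between KO_PBS and WT_PBS (SE 0.12, 95% interval 0.06 to 0.62) had an adjusted p = 0.0795, and that between KO_secGAA and KO_PBS was -0.21 (interval -0.49 to 0.07, adjusted p = 0.399). Per unit of length, Utrn stood at 0.244 to 0.319 of Dmd in WT_PBS, 0.272 to 0.314 in KO_PBS and 0.284 to 0.428 in KO_secGAA. This ratio does not depend on the scaling of libraries, and its groups overlapped.

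Dag1 (ENSMUSG00000039952, chromosome 9, 108204634 to 108263958), the link across the membrane, was at 166, 141 and 158 in WT_PBS, at 163, 162 and 182 in KO_PBS and at 147, 142 and 165 in KO_secGAA. The 3 groups overlapped. Its log2 difference between KO_PBS and WT_PBS was 0.13 (interval -0.08 to 0.34, adjusted p = 0.372), the least of the 8, and that between KO_secGAA and KO_PBS was -0.16 (interval -0.37 to 0.05, adjusted p = 0.408). The bounds allow a rise in KO_PBS about as large as that of Dmd.

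Of the 3 sarcoglycans followed here, Sgcd and Sgcb passed the test in KO_PBS, and differences in response between the 3 genes were not tested. Sgcd (ENSMUSG00000020354, chromosome 11, 46896253 to 47988969), which encodes delta-sarcoglycan, was at 4.90, 6.85 and 6.03 in WT_PBS, at 8.32, 8.87 and 8.23 in KO_PBS and at 5.02, 4.85 and 5.37 in KO_secGAA. Every KO_PBS library was above all others, and the treated libraries lay in or just under the wild-type range. The rise was 0.49 on the log2 scale (SE 0.14, adjusted p = 0.0345) and the difference with treatment -0.69 (SE 0.14, adjusted p = 0.0342), the steepest fall of the 8. The rise did not pass without any one KO_PBS library, WT_PBS 1 or WT_PBS 3 (adjusted p from 0.0709 to 0.105). It also did not pass with DESeq2 (0.0738), quantile normalization (0.0787) or only the 2 groups (0.059). The fall did not pass without any one KO_PBS or KO_secGAA library or without WT_PBS 3 (0.0601 to 0.111).

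Sgcb (ENSMUSG00000029156, chromosome 5, 73632749 to 73647790), which encodes beta-sarcoglycan, was at 97.5, 104 and 116 in WT_PBS, at 127, 120.0 and 138 in KO_PBS and at 113, 110 and 117 in KO_secGAA. KO_PBS was clear of both other groups, whose ranges overlapped. The rise of 0.28 on the log2 scale (SE 0.09) lay on the threshold, with limma's adjusted p = 0.04999. It did not pass with edgeR (adjusted p = 0.0613), DESeq2 (0.0521) or limma voom (0.0547), nor without any single library other than WT_PBS 3 (0.0611 to 0.149). The rise also failed with no variance trend (0.0966) and with only the 2 groups (0.0809), and passed in 5 of 20 alternatives. The difference with treatment, -0.17, did not pass (interval -0.37 to 0.02, adjusted p = 0.322).

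Sgca (ENSMUSG00000001508, chromosome 11, 94962791 to 94976327) encodes alpha-sarcoglycan, a sarcoglycan of striated muscle. Sgca was at 209, 194 and 211 in WT_PBS, at 232, 242 and 217 in KO_PBS and at 212, 216 and 252 in KO_secGAA. Both knockout groups lay above WT_PBS without overlap, while they overlapped each other. The log2 difference between KO_PBS and WT_PBS was 0.17 (interval -0.03 to 0.37, adjusted p = 0.199), and it passed with quantile normalization (0.27, adjusted p = 0.0285). Treated and untreated knockouts differed by -0.03 (interval -0.23 to 0.17, adjusted p = 0.904). Per length, Sgcd was 0.0165 to 0.0248 of Sgca in WT_PBS, 0.0252 to 0.0266 in KO_PBS and 0.0150 to 0.0167 in KO_secGAA. In that ratio, which is free of library scaling, KO_PBS stood above both other groups. The ratio was looked at with the values known, so it is a description.

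Of the laminin side, Lama2 (ENSMUSG00000019899, chromosome 10, 26980036 to 27619758) was at 27.5, 31.9 and 25.7 in WT_PBS, at 46.4, 58.6 and 48.0 in KO_PBS and at 36.9, 32.9 and 37.3 in KO_secGAA. The 3 groups did not overlap at all, with KO_secGAA between the other two. Its rise of 0.83 on the log2 scale (SE 0.12, adjusted p = 0.00122) was the largest of the 8 and passed in all 20 alternative analyses, with adjusted p at most 0.00804. The difference with treatment was -0.50 (SE 0.12) and barely passed (adjusted p = 0.0489). That call ended with each library left out in turn (adjusted p from 0.0532 to 0.156), with edgeR (0.0515) and with limma voom (0.0514). It also ended with no variance trend (0.0909), only the 2 groups (0.0722) and quantile normalization (0.0534), and held in 5 of 20 alternatives.

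Itga7 (ENSMUSG00000025348, chromosome 10, 128933818 to 128958282) was at 91.8, 81.4 and 81.0 in WT_PBS, at 110.0, 107 and 124 in KO_PBS and at 99.1, 92.5 and 111 in KO_secGAA. Both knockout groups were above WT_PBS without overlap, and 1 treated library reached the KO_PBS range. The rise was 0.42 on the log2 scale (SE 0.10, adjusted p = 0.0129) and passed in 19 of 20 alternatives, the exception being without WT_PBS 3 (adjusted p = 0.056). The difference with treatment, -0.17, did not pass (interval -0.39 to 0.04, adjusted p = 0.379). Set against Dag1, the other laminin receptor, Itga7 per length stood at 0.722 to 0.813 in WT_PBS, 0.932 to 0.959 in KO_PBS and 0.915 to 0.951 in KO_secGAA. By this ratio too, described with the values known, both knockout groups lay above the wild type.

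**Figure D2:**
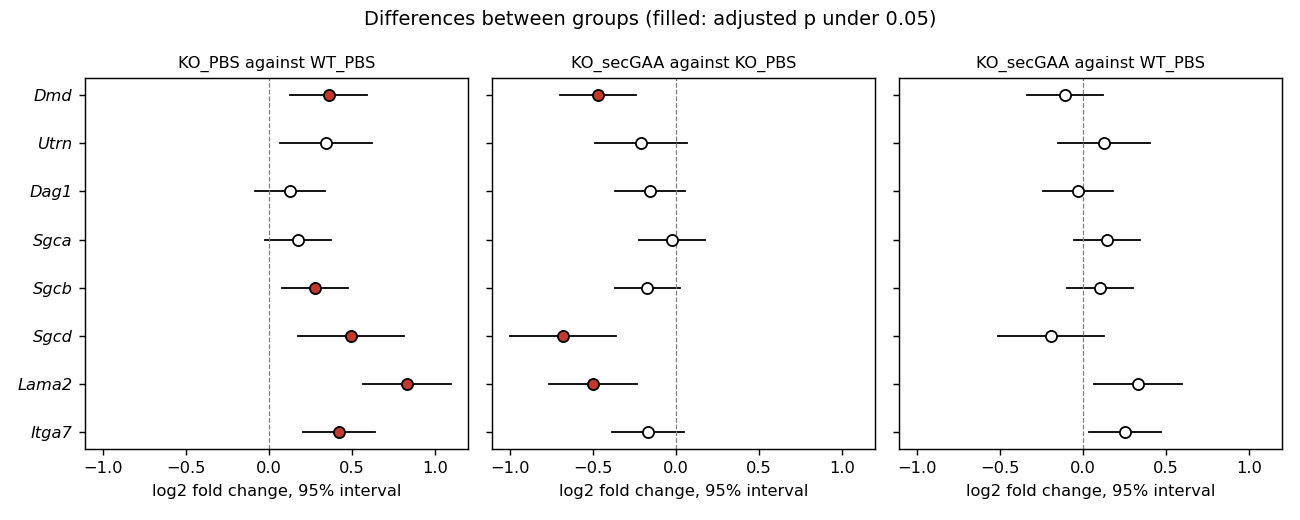
Log2 fold change (x axes) of the 8 genes (y axis) in the 3 comparisons, with 95% intervals from limma as lines; filled points have an adjusted p under 0.05. In KO_PBS against WT_PBS all 8 points lie above 0 and 5 are filled, in KO_secGAA against KO_PBS all lie below 0 and 3 are filled, and in KO_secGAA against WT_PBS none is filled.

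The last comparison, KO_secGAA against WT_PBS, concerned what difference remained after treatment. By limma 0 of the 8 genes passed, where 3.72% of all genes did. Of the 8, 2 had an unadjusted p under 0.05, and edgeR, DESeq2 and limma voom called 0 each. The share of all genes at an unadjusted p under 0.05 is not given here. Such counts, for the 8 genes and for the lists below, therefore do not show an excess over all genes. The treated libraries of Lama2, Itga7 and Sgca all lay above the wild-type ones, a separation that 13.5% of all genes showed in that direction. The log2 differences were 0.33 for Lama2 (interval 0.07 to 0.59, adjusted p = 0.143), 0.25 for Itga7 (0.03 to 0.47, adjusted p = 0.174) and 0.14 for Sgca (-0.05 to 0.34, adjusted p = 0.38). Without the authors' scaling factors these 3 passed, at 0.49, 0.41 and 0.31, but there the median of all genes was itself 0.155 above 0. For Dmd, Sgcd and Dag1 the log2 differences were -0.11 (interval -0.34 to 0.12), -0.19 (-0.51 to 0.13) and -0.03 (-0.24 to 0.18). Utrn and Sgcb stood at 0.13 (-0.15 to 0.41) and 0.10 (-0.10 to 0.30). A p above the threshold does not show that treated and wild-type levels were the same.

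**Figure D3:**
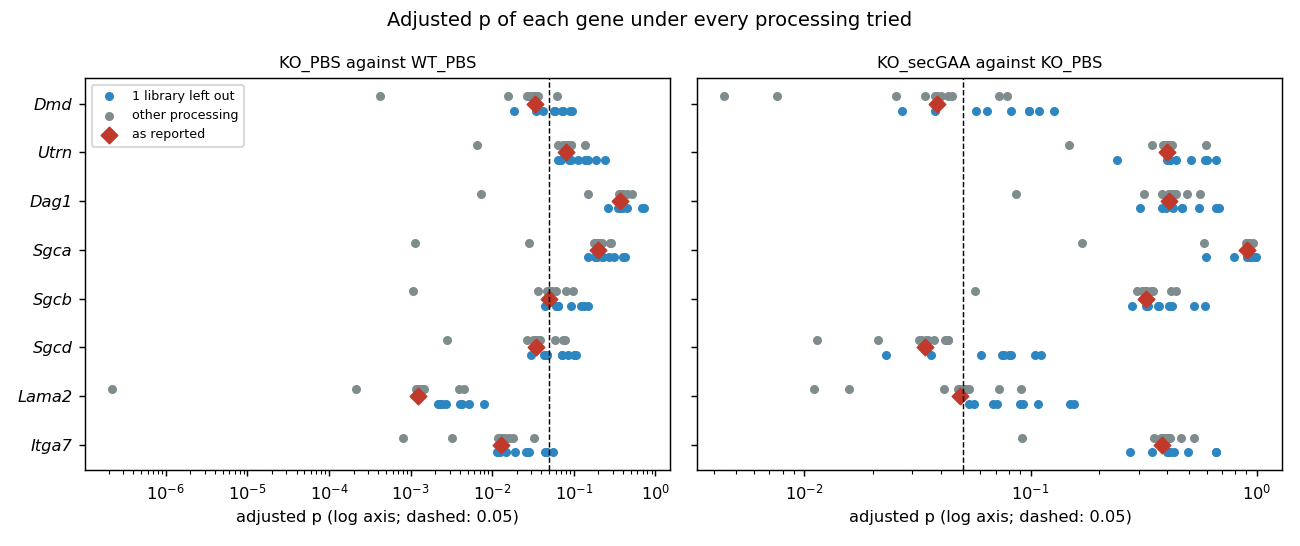
Adjusted p (x axes, log scale, dashed line at 0.05) of the 8 genes (y axis) as reported (red diamonds), with 1 library left out (blue) and under other processing (grey), for KO_PBS against WT_PBS (left) and KO_secGAA against KO_PBS (right). Lama2 stays left of the line in all 20 alternatives of the left panel, while its points fall on both sides of it in the right panel.

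The remaining genes of the complex were taken from a list of 13, of which 10 were tested. In KO_PBS against WT_PBS 1 rose, 1 fell and 8 did not pass, where 10.9% of all genes rose and 11.0% fell. The median log2 fold change of the 10 was 0.02. Sspn, which encodes sarcospan, the small membrane protein that sits with the sarcoglycans, rose from 53.1, 62.2 and 63.3 to 83.2, 94.9 and 91.0 normalized counts. The rise was 0.59 on the log2 scale (SE 0.11, adjusted p = 0.00502) and passed in all 20 alternatives. Treated libraries of Sspn were at 75.3, 59.0 and 70.1, below KO_PBS without overlap, but the difference of -0.40 did not pass (adjusted p = 0.087), except with DESeq2 (0.0438) or without scaling factors (0.0224). Sgce, a sarcoglycan of many tissues, was at 6.81 ± 1.31, 7.22 ± 2.54 and 6.81 ± 0.884 normalized counts (SD, n = 3) in WT_PBS, KO_PBS and KO_secGAA (log2 difference 0.03 in KO_PBS, interval -0.54 to 0.61).

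Dtnb, which encodes beta-dystrobrevin, fell by 0.82 on the log2 scale, from 5.52, 3.48 and 5.29 to 2.90, 2.17 and 2.25 normalized counts (adjusted p = 0.0257). Its call ended without KO_PBS 2, KO_PBS 3, WT_PBS 1 or WT_PBS 3 (adjusted p from 0.0713 to 0.0967) and without scaling factors (0.0686). In KO_secGAA against KO_PBS 1 gene of the list fell and 0 rose, where 2.31% of all genes fell and 1.37% rose. The fallen gene was Nos1, the neuronal nitric oxide synthase that the complex holds at the membrane. Nos1 was at 50.8, 58.1 and 63.0 in WT_PBS, at 100.4, 46.7 and 60.5 in KO_PBS and at 18.5, 26.6 and 36.1 in KO_secGAA. The treated libraries lay below all 6 others, and the fall against KO_PBS was 1.32 on the log2 scale (SE 0.28, adjusted p = 0.0378). This call ended without KO_PBS 1, KO_PBS 3, KO_secGAA 1, KO_secGAA 2, WT_PBS 2 or WT_PBS 3 (limma adjusted p from 0.055 to 0.105). It also ended with no variance trend (0.0695) and with only the 2 groups (0.0745). KO_PBS 1 stood far above its group. Against WT_PBS 0 of the 10 genes passed with limma, 3 had an unadjusted p under 0.05, and edgeR, limma voom and DESeq2 called 0, 0 and 1. Of all genes, 3.72% passed there by limma. DESeq2 called 1022 of all genes in KO_secGAA against WT_PBS. The gene of the list that DESeq2 called was Nos1 (adjusted p = 0.0039). By limma its log2 difference from WT_PBS was -1.11 (interval -1.75 to -0.48, adjusted p = 0.062). It passed with only the 2 groups (0.0425), without KO_PBS 1 (0.0311) and without KO_secGAA 3 (0.0404).

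Enzymes that build the sugar chain by which dystroglycan binds laminin made up a list of 18, of which 17 were tested. In KO_secGAA against KO_PBS 0 of 17 passed by limma, edgeR, DESeq2 or limma voom, and 1 had an unadjusted p under 0.05. In KO_secGAA against WT_PBS the same tools called 0, with 3 at an unadjusted p under 0.05. By limma, 2.31% of all genes fell and 1.37% rose in the first of these comparisons, and 3.72% passed in the second. A count of 0 of 17 is near these shares, so it does not show that these enzymes were unchanged.

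**Figure D4:**
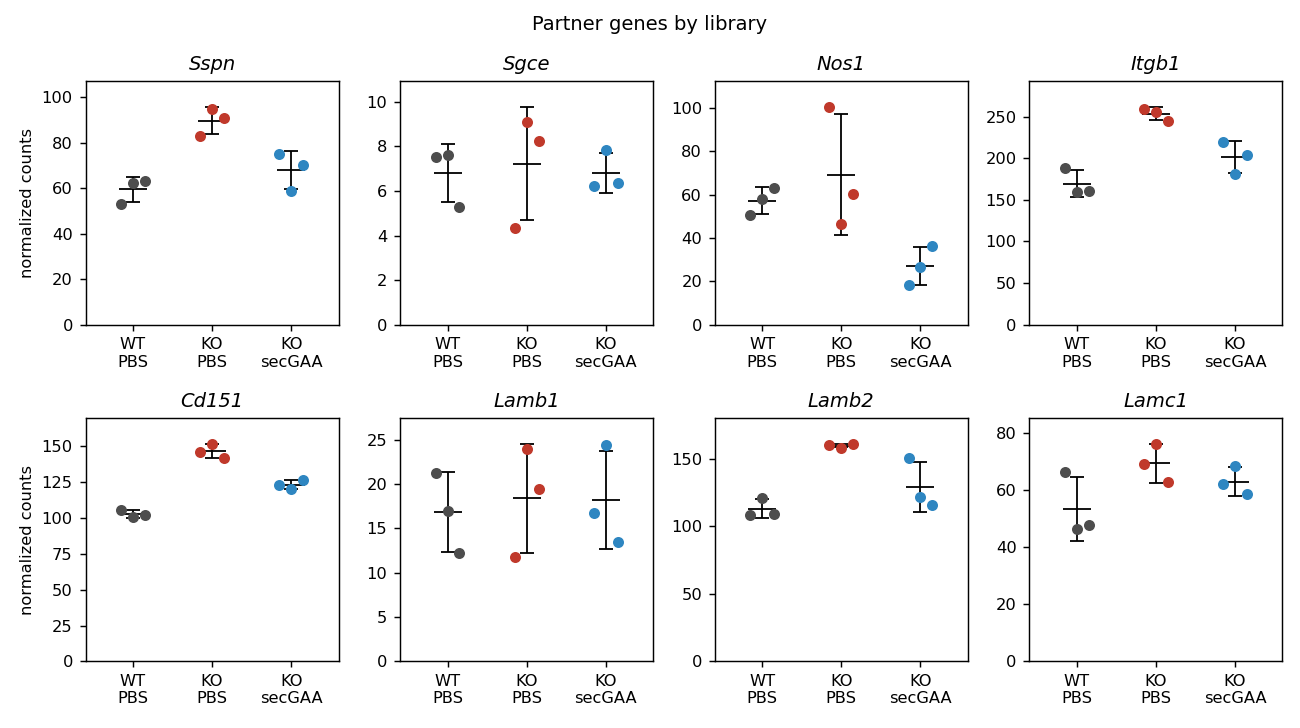
Normalized counts (y axes, each from 0) of 8 partner genes in the 3 libraries of each group (x axes; bars are mean and SD). Itgb1, Cd151, Lamb2 and Sspn are higher in KO_PBS than in WT_PBS without overlap, while Sgce and Lamb1 overlap between groups and Nos1 is lowest in KO_secGAA.

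The basement membrane list, 18 tested genes of other laminins, nidogens, perlecan, agrin and type IV collagens, had 2 risen and 0 fallen genes in KO_PBS. Of all genes, 10.9% rose and 11.0% fell. Lamb2, the beta 2 chain that joins laminin alpha 2 at the neuromuscular junction, rose 1.41-fold, from 109, 121 and 109 to 160.2, 158 and 160.4 normalized counts (SE 0.10 on the log2 scale, adjusted p = 0.00758). With treatment it stood at 150.3, 122 and 116 (log2 difference -0.31 against KO_PBS, adjusted p = 0.134), and it passed without KO_secGAA 1 (adjusted p = 0.0389) or without scaling factors (0.0428). Lamb1, the beta 1 chain of laminin-211, ranged from 11.8 to 23.9 within KO_PBS alone and from 12.3 to 21.3 in WT_PBS (log2 difference 0.10, interval -0.55 to 0.76). Lamc1, the gamma 1 chain, was at 66.2, 46.3 and 47.7 in WT_PBS, at 69.2, 76.2 and 62.7 in KO_PBS and at 62.0, 68.4 and 58.5 in KO_secGAA. Its log2 difference of 0.39 in KO_PBS did not pass (adjusted p = 0.0754), and passed without WT_PBS 1 (adjusted p = 0.00864) or without scaling factors (0.00546). Col4a5, a type IV collagen chain, rose from 1.95, 1.30 and 1.22 to 2.84, 3.98 and 3.45 (adjusted p = 0.038), but not without KO_PBS 1, KO_PBS 2, KO_PBS 3, KO_secGAA 2, WT_PBS 2 or WT_PBS 3 (0.0522 to 0.121). In each comparison with KO_secGAA 0 of the 18 passed by limma, edgeR, DESeq2 or limma voom, with 3 genes against KO_PBS and 5 against WT_PBS at an unadjusted p under 0.05. By limma, 2.31% of all genes fell and 1.37% rose against KO_PBS, and 3.72% passed against WT_PBS.

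Of 22 tested genes of integrins and the proteins that couple them to actin, 7 rose and 3 fell in KO_PBS, where 10.9% of all genes rose and 11.0% fell. Their median log2 fold change was 0.26 beside 0.01 for all genes. Itgb1, the beta 1 chain that pairs with integrin alpha 7, rose 1.5-fold, from 188, 160 and 161 to 260, 256 and 245 normalized counts (SE 0.10 on the log2 scale, adjusted p = 0.00261, passing in all 20 alternatives). Treated libraries were at 220, 181 and 203, below KO_PBS without overlap (log2 difference -0.33, adjusted p = 0.0962, and 0.022 without scaling factors). Cd151, a tetraspanin that binds laminin-binding integrins, rose 1.42-fold, from 106, 100 and 102 to 146, 152 and 142 (adjusted p = 0.000907). Itgav, the alpha chain of the vitronectin receptors, rose 1.88-fold, from 29.2 ± 2.67 to 55.2 ± 3.12, and fell by 0.61 with treatment to 36.3 ± 6.0 (SD, n = 3, limma adjusted p = 0.0335).

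The 3 genes that fell in KO_PBS were Itgb1bp2, Fermt2 and Ptk2, the focal adhesion kinase, of which Ptk2 is named after its value was seen. Itgb1bp2, which encodes melusin, a muscle protein that binds the tail of integrin beta 1, fell by 0.70 on the log2 scale, from 139 ± 12.9 to 85.5 ± 9.74 (SD, n = 3, limma adjusted p = 0.00253). Fermt2, which encodes the integrin activator kindlin-2, fell by 0.51, from 181 ± 4.72 to 127 ± 7.83 (SD, n = 3, limma adjusted p = 0.00249), though not without scaling factors (adjusted p = 0.0701). Tln1, which encodes talin, an integrin activator that links integrins to actin, was at 97.3, 108 and 108 in WT_PBS. It rose in KO_PBS by 0.43 on the log2 scale (SE 0.10, limma adjusted p = 0.0169), a call that ended without KO_PBS 2 (0.0543) and is given after its value was seen. Tln1 then fell by 0.46 with treatment, from 138, 142 and 142 to 121, 92.8 and 95.5 (adjusted p = 0.0447). In that comparison 2 of the 22 genes fell and 0 rose, where 2.31% of all genes fell and 1.37% rose. The call of Itgav ended without any one KO_PBS library, KO_secGAA 2, KO_secGAA 3 or WT_PBS 3 (adjusted p from 0.0598 to 0.111), and that of Tln1 without any one of these or without WT_PBS 2 (0.0635 to 0.143). The fall of Tln1 also did not pass with edgeR (0.0589), limma voom (0.0505) or quantile normalization (0.0596). Nor did it pass with no variance trend (0.095) or only the 2 groups (0.0804). The fall of Itgav likewise did not pass with no variance trend (0.0638) or only the 2 groups (0.0586). Against WT_PBS 0 of the 22 passed by limma, edgeR or limma voom, DESeq2 called 2, and 9 had an unadjusted p under 0.05. Of all genes, 3.72% passed there by limma. DESeq2 called 1022 of all genes in KO_secGAA against WT_PBS, and the share of all genes at that unadjusted p is not given.

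Of 14 tested genes of the cytoskeleton at costameres, the sites where Z-discs attach to the membrane, 4 rose and 2 fell in KO_PBS. Of all genes, 10.9% rose and 11.0% fell. Sync, which encodes syncoilin, an intermediate filament protein that binds dystrobrevin, rose 2.04-fold, from 20.9 ± 1.25 to 43.4 ± 6.57 (SD, n = 3, limma adjusted p = 0.00129). With treatment it fell by 0.83 on the log2 scale to 24.3 ± 4.38 (SD, n = 3, limma adjusted p = 0.0184), though not without KO_PBS 3 (adjusted p = 0.0588) or KO_secGAA 2 (0.0548). Ank1, an ankyrin that links membranes to the cytoskeleton, fell by 0.96, from 556 ± 28.5 to 287 ± 34.9, and rose 1.51-fold with treatment to 432 ± 58.8 (SD, n = 3, limma adjusted p = 0.000637 and 0.0323). The second Ank1 call ended without any one KO_PBS library, KO_secGAA 2, KO_secGAA 3 or WT_PBS 3 (adjusted p from 0.0507 to 0.0879) and without scaling factors (0.0583). It also ended with quantile normalization (0.0596), no variance trend (0.0638) and only the 2 groups (0.0631). Ldb3, a Z-disc protein, fell by 0.66, from 1697, 1754 and 1798 to 1149, 1143 and 1036 (limma adjusted p = 0.00179). Krt18, a keratin, was at 0.788, 0.457 and 0.185 in WT_PBS, at 3.16, 3.98 and 8.04 in KO_PBS and at 4.10, 1.71 and 2.20 in KO_secGAA. All its WT_PBS values were under 1, so Krt18 passed the low-value filter only through the knockout groups, where it was high. Its calls carry that limit and are not read as support. Krt18 rose in KO_PBS (limma adjusted p = 0.00216). It was the 1 gene of the list that passed with limma in KO_secGAA against WT_PBS (adjusted p = 0.0461), where 3.72% of all genes did. That second call ended without any one KO_secGAA library, KO_PBS 2, WT_PBS 2 or WT_PBS 3 (adjusted p from 0.0661 to 0.162). It also ended with limma voom (0.111), quantile normalization (0.0583), no variance trend (0.0645), only the 2 groups (0.0587) and a pseudocount of 1 (0.063). In that comparison edgeR called 1 of the 14 genes, DESeq2 6 and limma voom 0, and 7 had an unadjusted p under 0.05. DESeq2 called 1022 of all genes in KO_secGAA against WT_PBS and edgeR 503, beside 487 by limma, so the 3.72% is not the background for the 6. The share of all genes at that unadjusted p is not given.

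The genes whose log2 values over the 9 libraries were most like each member were found by Pearson correlation among 8888 genes, as a description in which all share the same 9 libraries and 3 groups. Dmd was nearest to Agpat3 (r = 0.97) and Tmf1 (0.95), Sgcd to Fam234a and Lamp1 (both 0.96) and Lama2 to Ankrd10 (0.98) and Zfp142 (0.97). Lamp1 encodes an abundant membrane protein of lysosomes, and its means were 485, 707 and 465 normalized counts in WT_PBS, KO_PBS and KO_secGAA. Itga7 was close to Cgref1 (0.97), Utrn to Khnyn (0.96) and Nrbp1 (0.95), Sgcb to Nampt (0.96) and Napb (0.94). For Dag1 the nearest were Gmppa and Vrk3 (both 0.95), and for Sgca Lysmd2 and Pef1 (both 0.95). Among the members themselves, r was 0.91 for Dmd and Sgcd, 0.80 for Lama2 and Itga7 and for Lama2 and Utrn, and 0.17 for Utrn and Sgca, the lowest of the pairs.

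Several lists of marker genes moved with the same groups. Beside the counts given here, 10.9% of all genes rose and 11.0% fell in KO_PBS. Genes of regenerating or denervated fibres, 10 of 12 risen in KO_PBS, summed to 188 to 197 normalized counts in WT_PBS, 485 to 611 in KO_PBS and 225 to 283 in KO_secGAA. Mature fibre genes, 5 of 10 fallen in KO_PBS, summed to 154200 to 176100, 109400 to 126400 and 135200 to 148600. Macrophage markers, 4 of 12 risen in KO_PBS, summed to 105 to 169, 325 to 434 and 145 to 296. Fibroblast markers, a cell type known to make laminin alpha 2, had 1 of 10 risen (Lum) and overlapping sums, at 1130 to 1808, 1299 to 1850 and 1288 to 1732. Such sums weigh abundant genes most. In KO_PBS 5 of these 10 had a log2 fold change above 0. Among them Pdgfra and Dcn were 1.38-fold and 1.28-fold higher without passing (limma adjusted p = 0.0752 and 0.0732). Satellite cell markers, cells that carry integrin alpha 7, had 1 of 6 risen (Cdh15), with sums of 61.6 to 94.5, 78.3 to 114 and 56.0 to 84.0 that overlapped. Endothelial markers, 4 of 10 fallen in KO_PBS, summed to 216 to 268, 156 to 204 and 220 to 255, and of the 9 smooth muscle and pericyte markers 1 rose and 2 fell. Of 7 Schwann cell markers, limma, edgeR, DESeq2 and limma voom called 0 in KO_PBS, and 0 had an unadjusted p under 0.05. With treatment, 4 regenerating fibre genes, 2 macrophage markers, Cdh15 and Lum fell, and Mcam, of the pericyte list, rose. Of all genes, 2.31% fell and 1.37% rose with treatment. No gene of these lists matched in the table was at 0 reads in any library. The part of these cell types in the results above was not tested.

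**Figure D5:**
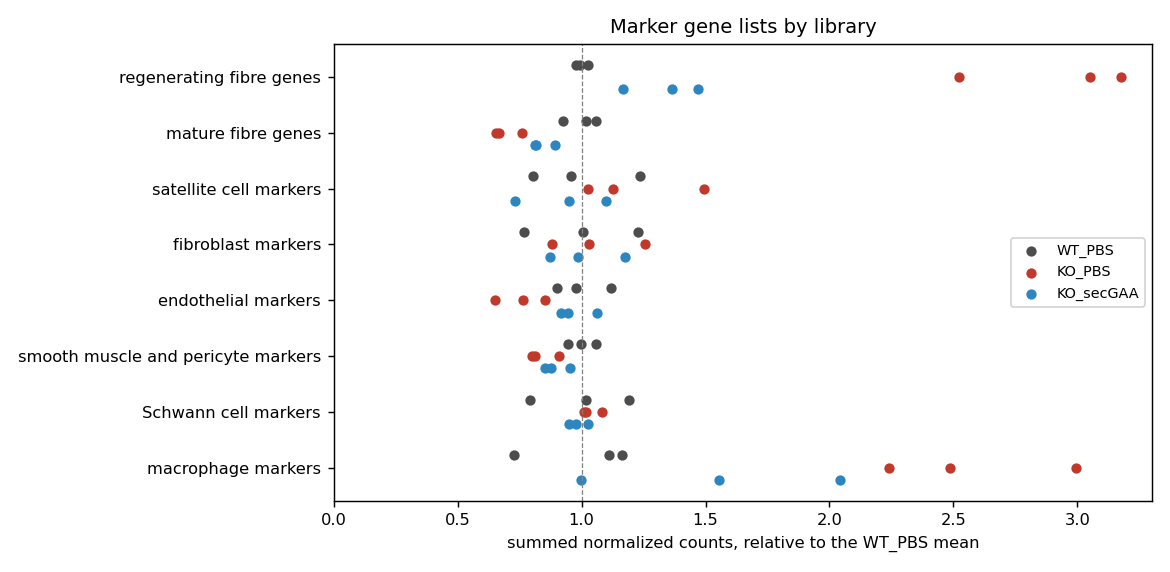
Summed normalized counts of 8 marker gene lists (y axis) in each library, divided by the mean of WT_PBS (x axis, from 0; grey WT_PBS, red KO_PBS, blue KO_secGAA). The sums of regenerating fibre genes and macrophage markers have KO_PBS means 2.92 and 2.57 times those of WT_PBS, while those of fibroblast, satellite cell and Schwann cell markers overlap.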

How the data were processed

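The deposited table covers 13116 genes in 9 libraries. Every value divided by its column's smallest was an odd whole number (100% of 118044 values, relative tolerance 1e-06), so whole reads were recovered. The signal deposited is, per these steps, reads plus 0.5, per 1e6 of total reads times a TMM factor. Per the submitters' processing notes, CASAVA, cutadapt, RSEM, limma, edgeR and GRCm38 were used. Versions, order and strand use were not given in the sources used here, so reads of overlapping or antisense genes could count towards a member.

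As these are not counts, limma 3.58.1 (R 4.3.3) was fitted to log2(value + 0.5), which shrinks folds of low genes. The fit used group means without covariates and an empirical Bayes trend, with 6 degrees of freedom left. The low-value filter (1 normalized count in 3 libraries) kept 13089 genes, and p-values were adjusted by Benjamini-Hochberg over all of them. The code was tested on simulated data. Alternatives were edgeR 4.0.16, DESeq2 1.42.0 and limma voom on the recovered reads, other scalings, filters and pseudocounts, and leaving out each library. On the recovered reads edgeR called 2841 genes in KO_PBS against WT_PBS, 445 in KO_secGAA against KO_PBS and 503 in KO_secGAA against WT_PBS. Lengths and coordinates come from GENCODE M21 (GRCm38) and promoters from RefSeq. The members and lists were chosen with earlier results of these data known. From each list, genes were named by smallest p among those called (up to 4 in each KO_PBS comparison and 2 in the other), with Itgb1, Lamb1, Lamb2, Lamc1, Sgce and Sspn in any case. Some genes that this rule names are not reported here. Precision is limited by 3 libraries a group.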

Additional observations from a re-analysis of the deposited data

How the results depend on the processing

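Many calls depended on the processing, for small differences and also for larger ones such as that of Nos1 in KO_secGAA against KO_PBS (-1.32). In KO_PBS against WT_PBS, where 5 members passed, 8 passed without scaling factors. That setting shifted the median over all genes from 0.01 to 0.305 log2 units. Relative to that median, the members' differences moved little (Lama2 0.82 and 0.84, Dag1 0.12 and 0.14). The count was 3 with no trend, 3 with only the 2 groups and 3 with DESeq2, and 2 to 4 with 1 library left out. In KO_secGAA against KO_PBS, where 3 passed, the count was 1 with no trend, 1 with only the 2 groups and 0 to 2 with 1 library left out. In KO_secGAA against WT_PBS it was 0, 3 without scaling factors and 0 with any library left out. Lama2 in KO_PBS was the 1 member call that held in all 20 alternatives.

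Of all genes, 2867, 481 and 487 passed in the 3 comparisons in this order, and 4984, 959 and 1007 without scaling factors. Of the calls in the first, 4466 were then higher, in place of 1430, of the second 102 in place of 179, and of the last 868 in place of 239. With no trend 286 and 308 passed in the last 2 comparisons, with DESeq2 798 and 1022, and with only the 2 groups 316 in the second. Leaving out 1 library gave 1730 to 2848, 161 to 571 and 89 to 504.

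Signs turned for differences of Dmd, Dag1, Sgca, Lamb1, Sgce and Nos1, none of which had passed. Nos1 in KO_PBS against WT_PBS, at 0.20, turned to -0.102 without KO_PBS 1 (range -0.102 to 0.447 with 1 library left out). Against WT_PBS, KO_secGAA turned to 0.048 for Dmd without scaling factors, and for Dag1 to 0.131 without scaling factors, 0.025 with quantile normalization and above 0 without WT_PBS 1 or KO_secGAA 2 (range with 1 library left out -0.097 to 0.019). Sgca in KO_secGAA against KO_PBS turned without KO_PBS 2, KO_secGAA 1 or KO_secGAA 2 (range -0.105 to 0.019). Lamb1 turned to -0.148 without scaling factors, -0.013 with edgeR, -0.012 with DESeq2, and ranged from -0.281 to 0.216 with 1 library left out in KO_secGAA against KO_PBS. Against WT_PBS, Lamb1 ranged from -0.112 to 0.384 in KO_PBS and from -0.122 to 0.291 in KO_secGAA. Sgce turned to -0.036 with quantile normalization, -0.022 with limma voom and ranged from -0.152 to 0.342 with 1 library left out in KO_PBS against WT_PBS. It turned to 0.025 with limma voom and ranged from -0.332 to 0.162 with 1 library left out in KO_secGAA against KO_PBS. Against WT_PBS, KO_secGAA turned for Sgce to -0.051 with quantile normalization, -0.003 with edgeR, -0.011 with DESeq2 and ranged from -0.149 to 0.095 with 1 library left out. The cause of these changes was not tested. No paired analysis was possible because the labels give no number or batch that groups share.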
